A study of Mus musculus with 12 samples.

Results

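The 9 genes described here encode transcription factors, and factors that act on them, that set and hold the macrophage lineage: Spi1, Cebpa, Cebpb, Cebpd, Maf, Runx1, Hhex, Bcl6 and Id2. They were taken by gene symbol from a count table of 54532 genes. All 9 passed the filter on low counts that left 13800 genes for testing. The libraries came from bone marrow-derived macrophages (BMMs), which are grown from marrow cells in macrophage colony-stimulating factor (M-CSF, here at 50 ng/mL), and poly-A RNA was sequenced. The study is about the integrin chain gene Itga9 in periodontal inflammation, as far as its title states, and crosses genotype with stimulation.

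The 4 groups held 3 libraries each, from 8-week-old male mice. The first was of genotype Itga9-Lyz2-cKO (cKO) stimulated with Pg for 2 hours at an MOI (multiplicity of infection) of 1:20, and the second was cKO control. The other two were of genotype Itga9-Lyz2-cHet (cHet), again with Pg under the same conditions or as control. By their names both genotypes carry an altered Itga9 allele and Lyz2, the lysozyme gene whose promoter commonly drives Cre in myeloid cells, so there was no wild-type group. The labels do not state which mouse or culture each library came from, so p-values measure the spread between libraries, which may be technical.

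PU.1, the product of Spi1, is an ETS factor that opens and occupies macrophage enhancers, and it works there with C/EBP and RUNX factors. Macrophages are known to keep this framework while an inflammatory stimulus changes its partners. In that setting C/EBPbeta is known as an inducible activator of inflammatory genes, c-Maf as a factor of differentiated, non-dividing macrophages, and BCL6 as a repressor of inflammatory genes.

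Library totals lay between 14527674 and 16793803 counts, and the 13800 genes tested held at least 99.9% of them. Itga9 had 7.84 to 13.6 CPM (the gene's count relative to the scaled size of its library) in cKO Pg, 5.98 to 11.5 CPM in cKO control, 19.4 to 34.0 CPM in cHet Pg and 17.9 to 32.3 CPM in cHet control libraries. Each cKO library was below each cHet library, but none was at 0, and the mean of its genotype differences was -1.46 ± 0.26 on the log2 scale (adjusted p = 0.0118, edgeR quasi-likelihood test). By the same test the Itga9 difference was -1.53 ± 0.37 in controls (adjusted p = 0.0497). Under Pg it was -1.39 ± 0.36 and did not pass at 0.05 (adjusted p = 0.125). All 8 macrophage markers examined were tested, and their summed level was 10000 to 11733 CPM in cKO Pg, 8062 to 9286 CPM in cKO control, 9547 to 11148 CPM in cHet Pg and 8142 to 9222 CPM in cHet control libraries. Marker lists of other cells summed, over the 12 libraries, to 416 to 718 CPM (neutrophil), 196 to 584 CPM (megakaryocyte), 103 to 160 CPM (monocyte), 29.1 to 45.7 CPM (T and NK), 9.05 to 20.7 CPM (B), 8.61 to 19.7 CPM (mast and basophil) and 5.83 to 32.1 CPM (erythroid). Within each group the libraries also fell apart along the dendritic and macrophage integrin gene Itgax, at 103 to 137 CPM in 6 libraries (cKO Pg 1 and 2, cKO control 1, cHet Pg 2 and 3, and cHet control 1) and 36.2 to 59.3 CPM in the other 6. Itgax was thus high in 2 of 3 libraries of each Pg group and in 1 of 3 of each control group. The labels name no batch that matches this.

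The start regions of the genes with the largest rise (Cebpb) and the largest fall (Hhex) after Pg, and of the repressor Bcl6, are shown so that the ends of the Pg response and its repressor can be read beside their values. The sequences are the bases just before an annotated start, from RefSeq on GRCm38.p6 (the build also called mm10), written 5′ to 3′ along the gene's own strand. Capitals mark matches, on either strand, to the NF-kB word (GGG, then 5 bases of any kind, then CC), to TTCNNNGAA (bound by STAT and BCL6 proteins) and to CACGTG (E-box). The upstream Bcl6 region lies at chr16:23988853-23989102 (minus strand) and the inner Bcl6 start region at chr16:23981284-23981533 (minus strand), inside the gene and outside its annotated exons. The Cebpb region lies at chr2:167688665-167688914 and the Hhex region at chr19:37434591-37434809, both on the plus strand.
Bcl6 upstream: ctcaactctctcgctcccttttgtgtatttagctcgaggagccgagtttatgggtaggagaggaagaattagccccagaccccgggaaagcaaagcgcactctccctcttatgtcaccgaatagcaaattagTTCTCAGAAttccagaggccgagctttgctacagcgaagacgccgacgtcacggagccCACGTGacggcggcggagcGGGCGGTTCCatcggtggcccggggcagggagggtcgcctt
Bcl6 inner: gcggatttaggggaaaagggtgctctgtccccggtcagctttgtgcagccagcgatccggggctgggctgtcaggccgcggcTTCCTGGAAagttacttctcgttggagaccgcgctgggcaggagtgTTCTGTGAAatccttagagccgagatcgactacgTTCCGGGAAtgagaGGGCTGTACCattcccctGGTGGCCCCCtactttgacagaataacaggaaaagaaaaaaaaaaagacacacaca
Cebpb: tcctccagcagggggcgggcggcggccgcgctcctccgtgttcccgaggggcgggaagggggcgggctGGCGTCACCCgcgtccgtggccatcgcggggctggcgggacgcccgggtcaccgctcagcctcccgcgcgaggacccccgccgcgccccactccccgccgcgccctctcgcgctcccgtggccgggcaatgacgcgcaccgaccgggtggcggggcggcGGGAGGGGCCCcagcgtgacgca
Hhex: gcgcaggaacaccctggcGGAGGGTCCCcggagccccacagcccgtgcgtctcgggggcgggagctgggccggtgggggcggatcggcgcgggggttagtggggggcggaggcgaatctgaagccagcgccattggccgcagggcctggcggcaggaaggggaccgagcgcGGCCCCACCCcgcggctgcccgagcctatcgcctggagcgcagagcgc
The upstream Bcl6 region holds 1 TTCNNNGAA word, 118 to 110 bases before the start, and the inner one holds 3. Of the 32851 regions of 250 bases in the RefSeq table, 7.02% hold at least 1 such word and 0.0274% (9 regions) at least 3. The NF-kB word was found in all 4 sequences shown, but 45.8% of all regions hold it, and 6.0% hold the E-box of the upstream Bcl6 region. None of the 4 holds the C/EBP word TTGCNNAA, the AP-1 word TGANTCA, the CREB word TGACGTCA or the PU.1 word GAGGAAGT, which are in 9.6%, 6.7%, 1.5% and 2.4% of all regions. Such matches describe letters only, and no binding was measured. The RefSeq table held start regions for 6 of the 9 members.

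After 2 hours of Pg, 7 of the 9 genes changed in cKO and 7 in cHet macrophages, by edgeR's quasi-likelihood test at an adjusted p under 0.05. Cebpb, Runx1, Id2 and Spi1 were higher and Hhex, Maf and Bcl6 were lower after Pg, in both genotypes. Cebpa and Cebpd did not pass this test in either, although DESeq2 also called Cebpa lower in cHet, which made 8 of the 9. Among all 13800 genes tested, 34% passed in cKO (16.9% higher, 17.1% lower) and 36.1% in cHet (18% higher, 18% lower). The median log2 change of the 9 genes was 0.15 in cKO and 0.24 in cHet, against 0.00 and -0.01 over all genes tested. The cKO comparison and the cHet comparison use separate libraries.

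**Figure D1:**
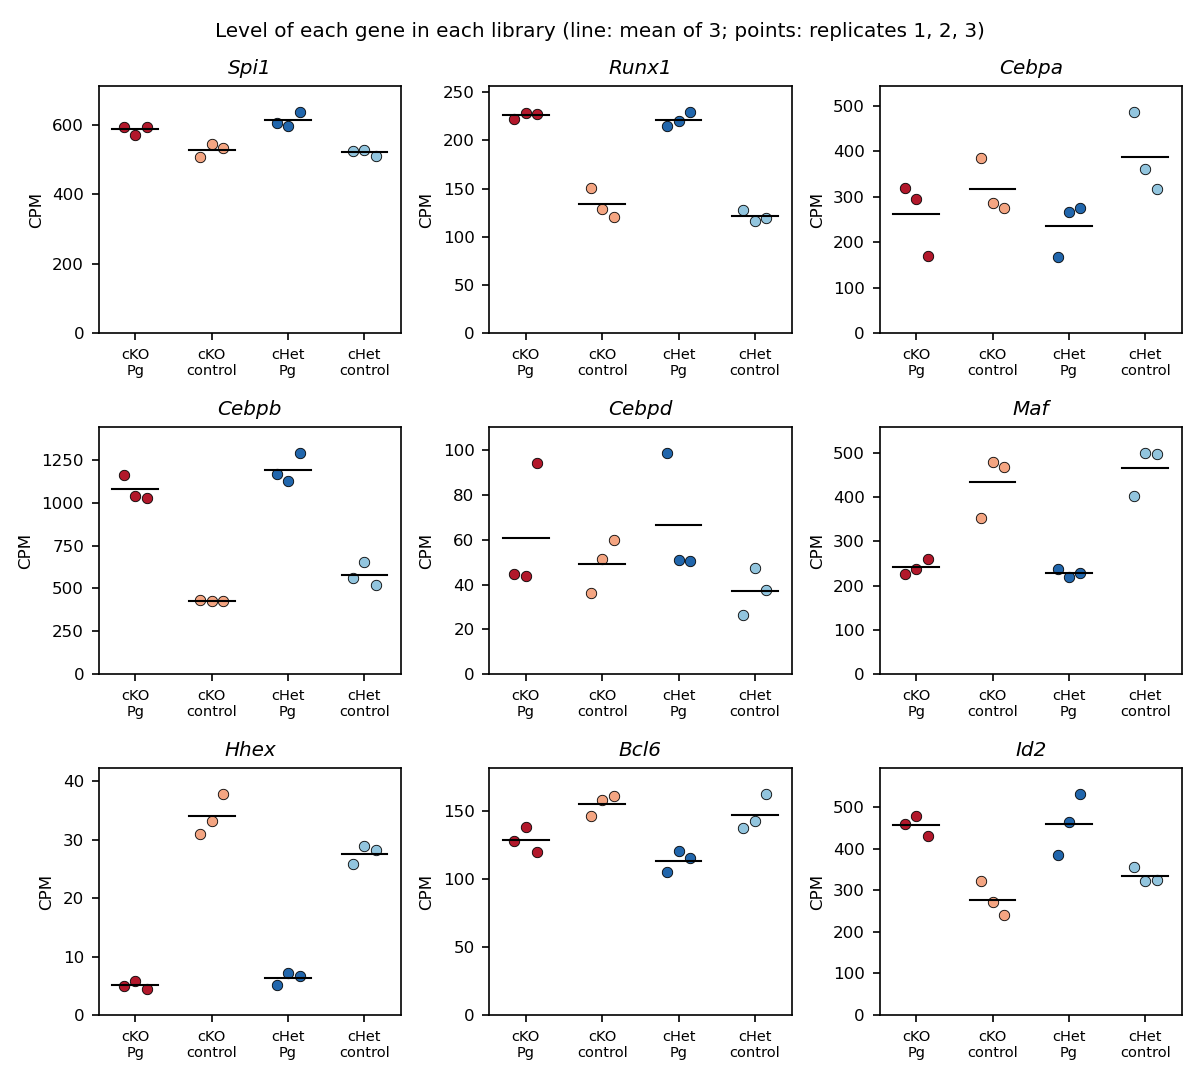
Level of each of the 9 genes in every library, in CPM on linear axes that start at 0, by group; each point is 1 library and each horizontal line a group mean of 3 libraries. Cebpb (1031 to 1288 CPM with Pg against 425 to 654 CPM in controls) and Hhex (4.40 to 7.11 CPM against 25.8 to 37.7 CPM) show the widest gaps between Pg and control libraries, and Cebpa and Cebpd the widest scatter within groups.

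Hhex (chromosome 19, 37434810 to 37440731, plus strand, mm10) encodes a homeobox repressor of blood and endothelial progenitors, and it fell most. It was counted 73, 82 and 64 times (4.91, 5.83 and 4.40 CPM) in the cKO Pg libraries and 521, 532 and 646 times (31.0, 33.1 and 37.7 CPM) in the cKO control libraries. In the cHet Pg libraries it had 72, 101 and 100 counts (5.06, 7.11 and 6.70 CPM) and in the cHet control libraries 463, 495 and 453 counts (25.8, 28.8 and 28.2 CPM). Every Pg library was far below every control library. On the log2 scale it changed by -2.75 ± 0.14 in cKO (6.72-fold lower, adjusted p = 7.46e-11) and -2.13 ± 0.13 in cHet (4.38-fold lower, adjusted p = 1.54e-09, both edgeR).

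Cebpb, whose product C/EBPbeta is activated by inflammatory signals, showed the largest rise. It had 1164, 1042 and 1031 CPM in cKO Pg libraries, against 432, 426 and 425 CPM in cKO control libraries. It had 1168, 1125 and 1288 CPM in cHet Pg libraries, against 562, 654 and 518 CPM in cHet control libraries. The Pg and control libraries did not overlap in either genotype, and the 3 cKO control libraries were nearly level with one another. Its log2 change was 1.33 ± 0.08 in cKO (adjusted p = 1.31e-09) and 1.05 ± 0.08 in cHet (adjusted p = 2.51e-08, edgeR). Cebpb (chromosome 2, 167688915 to 167690418, plus strand, mm10) is a gene of 1 exon, and 908 of its 1504 bases are shared with Tmem189 on the opposite strand. Tmem189 counts reached at most 33.3% of those of Cebpb in any library, and the strand setting of the counting is not given in the sources used here, so reads in the shared bases cannot be told apart. Tmem189 itself was higher after Pg, by 0.72 ± 0.06 in cKO (adjusted p = 1.02e-07) and 0.68 ± 0.06 in cHet (adjusted p = 1.9e-07, edgeR), and its part in the Cebpb rise was not tested.

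Runx1 (chromosome 16, 92601466 to 92826149, minus strand) encodes a factor needed for blood stem cell emergence and an upstream activator of Spi1. It was also higher after Pg. It had 223, 228 and 228 CPM in cKO Pg libraries, against 151, 129 and 121 CPM in cKO control libraries. It had 215, 220.0 and 229 CPM in cHet Pg libraries, against 127, 117 and 119 CPM in cHet control libraries. The 6 Pg libraries lay close together and above all 6 controls. The log2 change was 0.76 ± 0.07 in cKO (adjusted p = 3.83e-07) and 0.87 ± 0.07 in cHet (adjusted p = 7.26e-08, edgeR).

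Id2 (chromosome 12, 25093799 to 25097140, minus strand) encodes a helix-loop-helix protein without a DNA-binding part, which ties up E proteins and is required for several dendritic cell lineages. Its levels were 460.0, 478 and 430.0 CPM in cKO Pg libraries, against 321, 272 and 239 CPM in cKO control libraries. They were 384, 464 and 529.8 CPM in cHet Pg libraries, against 357, 322 and 325 CPM in cHet control libraries. The groups did not overlap in either genotype, but cHet Pg 1, a library with low Itgax, was only just above cHet control 1, one with high Itgax. In every group Id2 was higher in the libraries with high Itgax, of which the Pg groups held 2 of 3 and the control groups 1 of 3. Id2 had a log2 change after Pg of 0.72 ± 0.12 in cKO (adjusted p = 0.00031) and 0.46 ± 0.12 in cHet (adjusted p = 0.00728, edgeR). With libraries scaled by their total counts alone, the cHet change was 0.21 and missed the threshold (adjusted p = 0.143, over alternatives 6.81e-09 to 0.143). With log2 Itgax as a covariate, chosen after seeing the data, the change was 0.65 in cKO (adjusted p = 7.62e-08) and 0.30 in cHet (adjusted p = 0.00312). Without the 4 libraries that stood apart in their groups it was 0.88 in cKO and 0.61 in cHet. That choice leaves controls with low and Pg libraries with high Itgax, so it cannot separate Pg from Itgax. The summed level of the 6 dendritic markers was also higher after Pg. In cKO it was 11.7 to 17.0 CPM in Pg and 7.50 to 8.79 CPM in control libraries. In cHet it was 11.1 to 14.5 CPM in Pg and 6.12 to 8.53 CPM in control libraries. The single markers did not all rise: 3 of the 6 passed as higher in cKO and 2 in cHet, and 0 as lower. Their log2 changes ranged from -0.42 to 1.87 in cKO and from -0.24 to 2.62 in cHet. None of the 6 was at 0 in any group, and their part in the Id2 result was not tested. In bulk RNA, a change in how many cells of a type are present and a change in RNA per cell cannot be told apart.

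Maf (chromosome 8, 115682942 to 115707794, minus strand), which encodes c-Maf, fell. It had 226, 238 and 260.3 CPM in cKO Pg libraries, against 352, 480.1 and 468 CPM in cKO control libraries. It had 237, 220.3 and 228 CPM in cHet Pg libraries, against 403, 499 and 498 CPM in cHet control libraries. All 6 Pg libraries were below all 6 controls, and library 1, the one with high Itgax, was the lowest of each control group. In every group Maf was lower in the libraries with high Itgax, which were more frequent in the Pg groups. The log2 change was -0.85 ± 0.11 in cKO (adjusted p = 4.48e-05) and -1.03 ± 0.11 in cHet (adjusted p = 6.55e-06, edgeR). With the Itgax covariate it was -0.76 in cKO (adjusted p = 4.05e-12) and -0.85 in cHet (adjusted p = 1.79e-12). Without the 4 libraries that stood apart it was -1.03 in cKO and -1.16 in cHet. That choice leaves controls with low and Pg libraries with high Itgax, so it cannot separate Pg from Itgax. Over all alternatives the adjusted p was up to 0.000447 in cKO and 8.52e-05 in cHet.

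Bcl6 (chromosome 16, 23965052 to 23988852, minus strand), the zinc finger repressor gene, showed a smaller fall. It had 128, 138 and 119.5 CPM in cKO Pg libraries, against 146, 158 and 161 CPM in cKO control libraries. It had 105, 120.4 and 115 CPM in cHet Pg libraries, against 137, 142 and 162 CPM in cHet control libraries. The groups did not overlap in either genotype. The log2 change was -0.27 ± 0.08 in cKO (adjusted p = 0.0117) and -0.38 ± 0.08 in cHet (adjusted p = 0.00103, edgeR). The cKO call was lost without cKO control 3 (adjusted p = 0.0517) or without cKO Pg 3 (adjusted p = 0.0553), within a range over alternatives of 6.46e-05 to 0.0553.

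Spi1 (chromosome 2, 91082390 to 91115756, plus strand), the gene of PU.1, had the smallest change among the genes that passed. It had 594, 571 and 594 CPM in cKO Pg libraries, against 506, 545 and 532 CPM in cKO control libraries. It had 605, 597 and 635 CPM in cHet Pg libraries, against 523, 527 and 510.2 CPM in cHet control libraries. Every Pg library was above every control library on this scale, by a small margin. The log2 change was 0.15 ± 0.06 in cKO (adjusted p = 0.0452) and 0.24 ± 0.06 in cHet (adjusted p = 0.00316, edgeR). The direction depended on scaling. With total counts alone the changes were -0.093 in cKO (adjusted p = 0.196, over alternatives 0.00929 to 0.196) and -0.0086 in cHet (adjusted p = 0.916, over alternatives 3.43e-05 to 0.916). That scaling moved the median of all genes tested by -0.24 in both comparisons. Under it the passing members numbered 3 higher and 3 lower in cKO and 2 higher and 4 lower in cHet, and higher genes made up 18.7% of all calls in cKO and 19.1% in cHet, against 49.7% and 50% with TMM. The cKO call for Spi1 was also lost without any one of 9 of the 12 libraries.

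**Figure D2:**
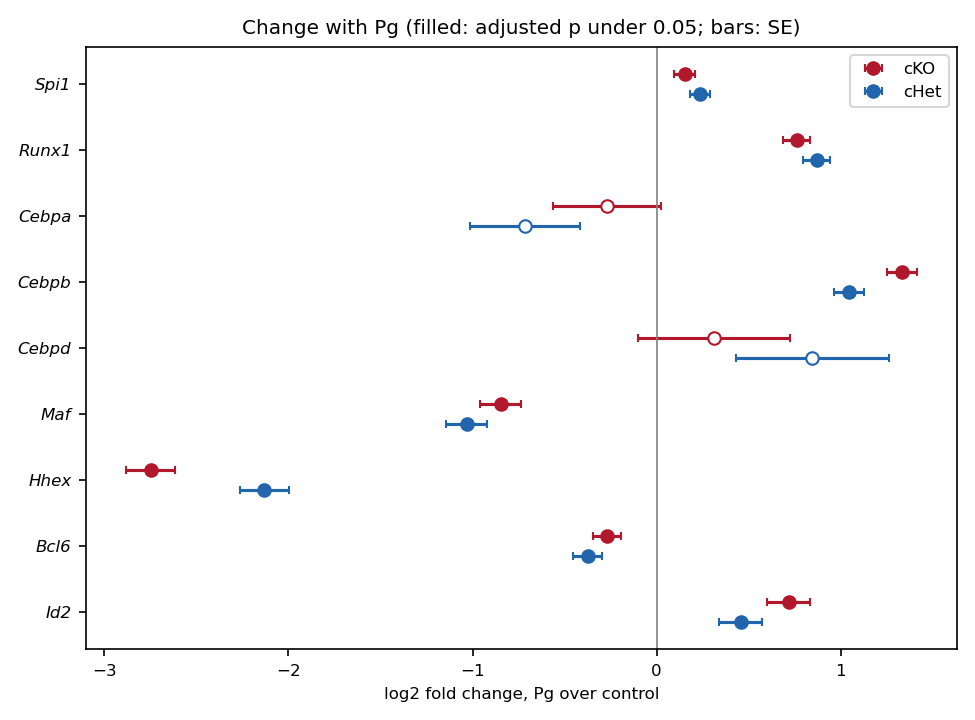
Log2 change after 2 hours of Pg for each of the 9 genes, in cKO and in cHet macrophages; points are edgeR estimates (filled where the adjusted p is under 0.05) and bars 1 standard error, from 3 libraries per group. Cebpb (1.33 and 1.05), Runx1 (0.76 and 0.87), Id2 and Spi1 lie above 0 in both genotypes, Hhex (-2.75 and -2.13), Maf and Bcl6 below 0 in both, and the bars of Cebpa and Cebpd are the widest.

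Cebpa (chromosome 7, 35119293 to 35121928, plus strand) and Cebpd (chromosome 16, 15887286 to 15891031, plus strand) are the C/EBP genes of granulocyte-monocyte progenitors and of the acute-phase response. Cebpa had 320.0, 295 and 170.4 CPM in cKO Pg libraries, against 385, 287 and 276 CPM in cKO control libraries. In cHet it had 167, 266 and 275 CPM with Pg, against 485, 361 and 316 CPM in controls. The cKO groups overlapped and the cHet groups did not. Neither log2 change passed: it was -0.27 ± 0.30 in cKO (adjusted p = 0.542) and -0.71 ± 0.30 in cHet (adjusted p = 0.0971, edgeR). In cHet 2 other planned choices did call Cebpa lower after Pg: DESeq2 (-0.70, adjusted p = 0.0452) and scaling by total counts alone (-0.95, adjusted p = 0.0267).

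Cebpd had 44.6, 43.7 and 94.3 CPM in cKO Pg libraries, against 36.0, 51.6 and 59.8 CPM in cKO control libraries. In cHet it had 98.6, 50.9 and 50.6 CPM with Pg, against 26.6, 47.4 and 37.5 CPM in controls. Here too the cKO groups overlapped and the cHet groups did not, with cKO Pg 3 and cHet Pg 1 standing above all other libraries. Its log2 change was 0.31 ± 0.41 in cKO (adjusted p = 0.624) and 0.85 ± 0.42 in cHet (adjusted p = 0.156, edgeR). Cebpd shares 1808 of its 3746 bases with Spidr on the opposite strand, whose counts reached up to 53.3% of those of Cebpd.

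Both genes moved with Itgax inside every group. In each of the 4 groups the libraries with high Itgax had more Cebpa and less Cebpd than those with low Itgax. Id2 and Maf sorted the same way in all 4 groups, with Id2 higher and Maf lower at high Itgax, and Runx1 was higher at high Itgax in 3 of the 4. Spi1, Cebpb, Hhex and Bcl6 did not sort with Itgax in one direction in more than 2 groups. How many of all genes tested sort with Itgax was not counted, so the sorting is not shown to be particular to these genes. The 2 Pg libraries that stood out for both, cKO Pg 3 and cHet Pg 1, had 48.0 and 59.3 CPM of Itgax, against 103 to 137 CPM in the other 4 Pg libraries. In a fit with log2 Itgax as a covariate, chosen after seeing the data, the change of Cebpa was -0.48 in cKO (adjusted p = 0.0193) and -1.11 in cHet (adjusted p = 0.000305), and that of Cebpd was 0.52 in cKO (adjusted p = 0.0479) and 1.36 in cHet (adjusted p = 0.000691). Without the library of each group that stood apart in Itgax, the Cebpa change was 0.14 in cKO (adjusted p = 0.0755) and -0.33 in cHet (adjusted p = 5.85e-05). The Cebpd change was then -0.33 in cKO (adjusted p = 0.00544) and 0.25 in cHet (adjusted p = 0.0295). That choice leaves 2 libraries a group, controls with low and Pg with high Itgax, and removing the farthest library lowers the spread by construction. Over all alternatives the adjusted p of Cebpa spanned 0.0193 to 0.94 in cKO and 5.85e-05 to 0.28 in cHet, and that of Cebpd 0.00544 to 0.917 in cKO and 0.000691 to 0.459 in cHet.

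**Figure D3:**
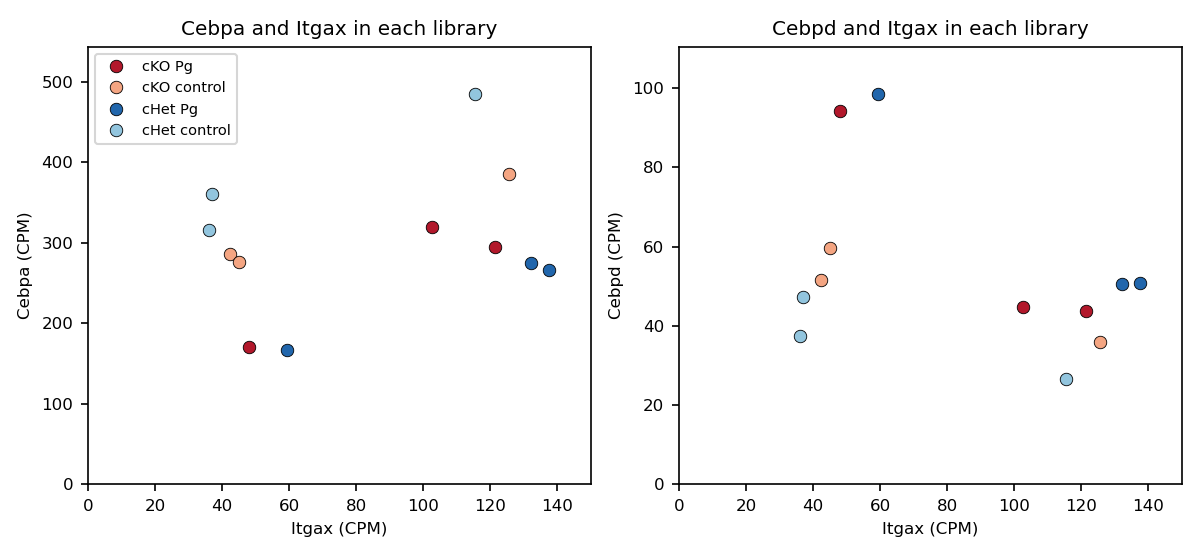
Levels of Cebpa and Cebpd against the level of Itgax in the 12 libraries, in CPM on linear axes, coloured by group. Within each group Cebpa is higher and Cebpd lower in the libraries with Itgax at 103 to 137 CPM than in those at 36.2 to 59.3 CPM.

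Among these C/EBP genes the share of Cebpb was higher after Pg. On a scale of CPM per kb of gene length, Cebpb made up 86.2% ± 1.94 of the summed level of Cebpa, Cebpb and Cebpd in cKO Pg, against 68.3% ± 2.94 in cKO control libraries (SD, n = 3 each). It made up 88.1% ± 1.47 in cHet Pg, against 71.0% ± 4.35 in cHet control libraries. The Cebpa share was 11.8% ± 3.01 in cKO Pg and 28.6% ± 3.83 in cKO control, and 9.91% ± 2.30 in cHet Pg and 27.1% ± 4.85 in cHet control. Neither share overlapped between Pg and control libraries. Both are parts of the same sum, so a rise of Cebpb lowers the Cebpa share even where Cebpa does not change. The Cebpa share is thus not a result apart from the Cebpb rise. The level of Cebpa itself did not pass after Pg in cKO (adjusted p = 0.542) or cHet (adjusted p = 0.0971, edgeR). With 3 against 3 libraries, an exact permutation test cannot go below a two-sided p of 0.1, so none is given.

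**Figure D4:**
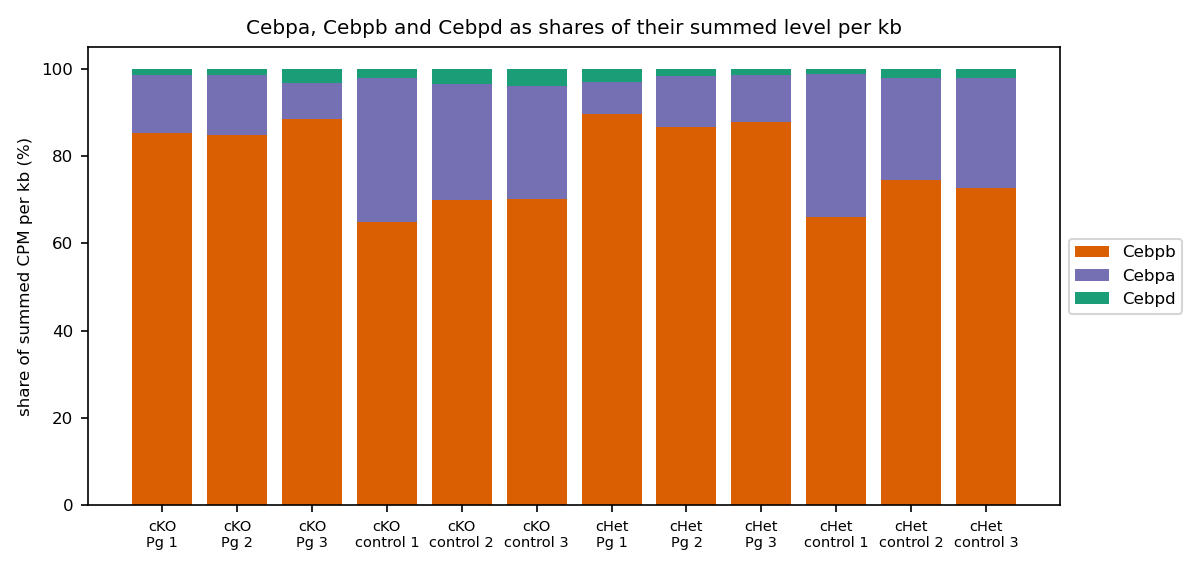
Share of Cebpb, Cebpa and Cebpd in their summed level (CPM per kb) in every library, in percent, by group. Cebpb holds 84.8% to 89.6% in the 6 Pg libraries and 64.9% to 74.4% in the 6 control libraries.

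Per kb of gene length, Cebpb was the highest of the 9 in every group, at 717 and 284 CPM per kb in cKO Pg and cKO control and at 794 and 384 CPM per kb in cHet Pg and cHet control. Spi1 came next in every group, at 193 to 227 CPM per kb. Id2 ranked next in both Pg groups, at 187 CPM per kb in cKO and 188 in cHet, and Cebpa next in both control groups, at 120.0 in cKO and 147 in cHet, where the ranges of Cebpa and Id2 overlapped. Maf followed these 4 everywhere, at 27.7 to 29.3 CPM per kb in the Pg groups and 52.6 to 56.6 in the control groups. Bcl6, Runx1 and Cebpd lay between 9.92 and 23.1 CPM per kb. Runx1 and Cebpd were neighbours with overlapping ranges in all 4 groups. Hhex was last in both Pg groups, at 2.63 CPM per kb in cKO and 3.28 in cHet, but ranked above Runx1 and Cebpd in the control groups, at 17.7 in cKO and 14.4 in cHet.

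In unstimulated macrophages, 1 of the 9 genes differed between genotypes, against 5.15% of all genes tested (2.13% higher and 3.02% lower in cKO). Cebpb was lower in cKO controls: 432, 426 and 425 CPM, against 562, 654 and 518 CPM in cHet controls, with no overlap. The log2 difference, cKO over cHet, was -0.43 ± 0.08 (adjusted p = 0.0042, edgeR). It kept its direction under all 21 alternatives, and the adjusted p spanned 3.02e-09 to 0.115. The highest was reached without the 4 libraries that stood apart in Itgax, where the difference was -0.46. Tmem189, the gene that shares bases with Cebpb, averaged 135 ± 7.25 CPM in cKO controls and 139 ± 3.79 CPM in cHet controls.

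Hhex and Id2 had the next lowest adjusted p in controls but missed the threshold. Hhex averaged 34.0 ± 3.42 CPM in cKO and 27.6 ± 1.62 CPM in cHet controls (log2 difference 0.30 ± 0.11, adjusted p = 0.157). Id2 averaged 277 ± 41.2 CPM in cKO and 335 ± 19.0 CPM in cHet controls (log2 difference -0.27 ± 0.12, adjusted p = 0.23). Id2 did pass with no filter (adjusted p = 0.00765), without the 4 libraries that stood apart (0.000636) and with the Itgax covariate (0.00328). Hhex passed only with that covariate (0.0465). The other 6 genes had differences between -0.29 and 0.40, with adjusted p between 0.337 and 0.902 (edgeR).

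**Figure D5:**
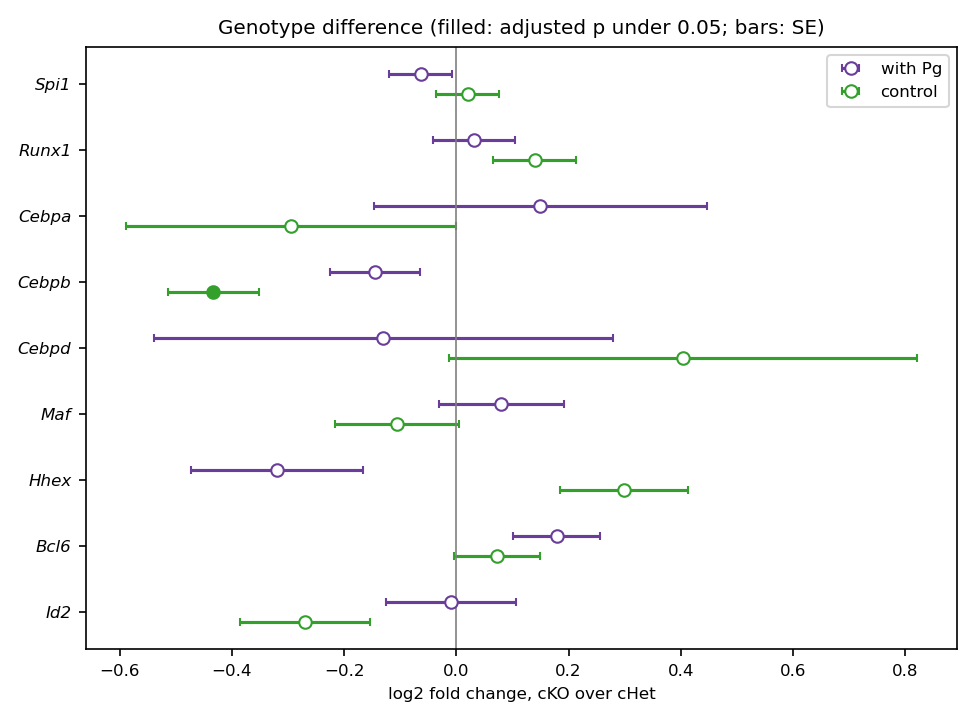
Log2 difference between cKO and cHet (cKO over cHet) for each of the 9 genes, under Pg and in controls; points are edgeR estimates (filled where the adjusted p is under 0.05) and bars 1 standard error, from 3 libraries per group. Cebpb in controls (-0.43) passed the test, and no member did under Pg.

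Under Pg, none of the 9 differed between genotypes by edgeR's test, against 1.85% of all genes tested (0.652% higher and 1.2% lower in cKO). At an unadjusted p under 0.05 there was 1 of the 9, near the 12.2% of all genes tested that reached this level. It was Bcl6, which averaged 128 ± 9.19 CPM in cKO Pg and 113 ± 7.85 CPM in cHet Pg libraries (log2 difference 0.18 ± 0.08, adjusted p = 0.354). DESeq2 also called 0 of the 9. Cebpb averaged 1079 ± 74.2 CPM in cKO Pg and 1194 ± 84.7 CPM in cHet Pg libraries, and these groups overlapped (log2 difference -0.15 ± 0.08, adjusted p = 0.51). In the mean of both genotype differences Cebpb alone of the 9 passed, at -0.29 ± 0.06 (adjusted p = 0.00484, edgeR), against 4.91% of all genes tested (2.13% higher, 2.78% lower). Without the 4 libraries that stood apart the mean was also -0.29 but missed the threshold (adjusted p = 0.165, over alternatives 2.8e-08 to 0.165).

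The difference between the Pg responses of the genotypes, tested as an interaction, passed for 0 of the 9, against 0.717% of all genes tested, and DESeq2 likewise called 0. At an unadjusted p under 0.05 there were 2 of the 9, where 12.6% of all genes tested reached this level. For Hhex the cKO response less the cHet response was -0.62 ± 0.19 (unadjusted p = 0.00486, adjusted p = 0.167), and for Cebpb it was 0.29 ± 0.11 (unadjusted p = 0.0218, adjusted p = 0.276, edgeR). With Itgax as a covariate the Hhex interaction was -0.63 (adjusted p = 0.0453, over alternatives 0.0356 to 0.341). Id2 passed there too (0.36, adjusted p = 0.0339), with 715 of 13800 genes. Without the 4 libraries that stood apart, 868 of 13861 genes passed. Among them were Hhex (-0.67, adjusted p = 0.0356), Cebpa (0.46, adjusted p = 0.000679) and Cebpd (-0.58, adjusted p = 0.0053). Both fits used edgeR and were chosen after seeing the data, and leaving out those libraries lowers the spread by construction.

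Stromal markers and Lyz2 moved with genotype. The summed level of 10 stromal markers was 4.48 to 7.16 CPM in cKO Pg, 2.68 to 3.87 CPM in cKO control, 38.5 to 47.9 CPM in cHet Pg and 37.2 to 40.7 CPM in cHet control libraries. Of 7 tested, 6 were lower in cKO than in cHet in each condition. The defining fibroblast gene Col1a1 averaged 0.661 ± 0.514 CPM in cKO Pg, 0.0997 ± 0.0683 CPM in cKO control, 4.98 ± 1.43 CPM in cHet Pg and 4.43 ± 0.930 CPM in cHet control libraries, and 1 of the 10 markers was at 0 in every library. Lyz2 was lower in cKO in controls (log2 difference -0.99 ± 0.09, adjusted p = 6.39e-06, edgeR). Their part in the Cebpb difference was not tested.

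Relatives and partners of the 9 genes were read from 7 lists of 43 transcription factor genes, of which 39 were tested. After Pg, 15 were higher and 1 lower in cKO (median 0.14), and 14 were higher and 7 lower in cHet (median 0.16). Medians over all genes tested were 0.00 and -0.01, and 34% of those genes passed in cKO and 36.1% in cHet. The excess of higher genes depended on scaling. Under scaling by total counts alone, only the list of Maf relatives had more higher than lower genes in cKO (4 and 0). In cHet only that list (3 and 0) and the RUNX list (1 and 0) did. The lists were described by counts only.

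All 4 tested relatives of Maf were higher after Pg in both genotypes, opposite in direction to Maf. The small Maf gene Maff, a partner of stress-response factors, averaged 255 ± 42.5 CPM in cKO Pg and 59.8 ± 8.86 CPM in cKO control, and 213 ± 40.6 CPM in cHet Pg and 90.0 ± 8.32 CPM in cHet control libraries. It had the largest change of the 4 (2.09 ± 0.18 in cKO, 1.24 ± 0.17 in cHet, adjusted p = 7.48e-06 and 0.000267, edgeR). Under scaling by total counts alone, 4 were higher in cKO and 3 in cHet, where Mafg did not pass.

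Of 10 ETS and IRF genes, 5 were higher and 0 lower in cKO (median 0.40), and 4 were higher and 2 lower in cHet (median 0.36). Irf4, a PU.1 partner known for alternative activation and dendritic cells, averaged 20.0 ± 3.58 CPM in cKO Pg and 3.53 ± 0.521 CPM in cKO control, and 20.5 ± 2.22 CPM in cHet Pg and 4.74 ± 1.10 CPM in cHet control libraries. Its log2 change was 2.49 ± 0.18 in cKO and 2.11 ± 0.17 in cHet (adjusted p = 1.1e-08 and 5.11e-08, edgeR). Spic, an ETS gene of iron-recycling macrophages, changed by 1.86 ± 0.15 in cKO and 1.24 ± 0.14 in cHet, and Ets2 by 1.15 ± 0.07 and 1.04 ± 0.07. Irf8, the PU.1 partner of monocytes and dendritic cells, was lower after Pg in cHet (-0.41 ± 0.07, adjusted p = 9.78e-05) and changed by -0.15 ± 0.07 in cKO (adjusted p = 0.086). It was the 1 gene of this list that differed between genotypes in controls, at 179 ± 5.47 CPM in cKO and 227 ± 11.3 CPM in cHet (log2 difference -0.35 ± 0.07, adjusted p = 0.00469). Under scaling by total counts alone the list had 3 higher and 4 lower in both genotypes.

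The remaining factor lists moved less. Of 3 other C/EBP genes, Cebpg, which encodes a widely expressed partner of the family, was lower after Pg (-0.40 ± 0.09 in cKO, -0.45 ± 0.09 in cHet, adjusted p = 0.00134 and 0.000488). Of 3 RUNX and CBFbeta genes, Runx3 was higher in both (0.89 ± 0.16 and 0.68 ± 0.16, adjusted p = 0.000392 and 0.00248). Cbfb, which encodes the shared DNA-binding partner of RUNX proteins, changed by -0.13 in cKO and 0.16 in cHet and passed in neither (adjusted p = 0.154 and 0.0609). Of 4 BCL6 corepressor genes, Ncor1 was higher in cKO (0.23 ± 0.06, adjusted p = 0.00921), and Bcor was higher in cHet (0.32 ± 0.06, adjusted p = 0.000896). Ncor1 did not pass in cHet (181 ± 8.48 CPM with Pg, 173 ± 9.59 CPM in controls). Bcor did not pass in cKO (249 ± 11.8 CPM with Pg, 238 ± 15.3 CPM in controls). The interaction passed for 0 of the 4. Ncor1 turned negative and Bcor missed the threshold under scaling by total counts alone. Under Pg, Bcor was lower in cKO than in cHet (log2 difference -0.27, adjusted p = 0.0386).

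A further 5 genes were relatives of Id2 or encode the E proteins that it ties up. Of these, Tcf4 was higher in cKO (0.35 ± 0.09, adjusted p = 0.00525), while Tcf3 (-0.35 ± 0.07, adjusted p = 0.00107) and Id3 (-0.56 ± 0.11, adjusted p = 0.00117) were lower in cHet. The genotype difference of these 3 responses did not pass (adjusted p of the interaction 0.375, 0.561 and 0.173). Under scaling by total counts alone the 5 genes had 0 higher and 2 lower in cKO, so the Tcf4 call was lost. In cHet they then had 0 higher and 4 lower. Of 10 other myeloid regulators, 3 were higher in cKO and 4 higher and 1 lower in cHet. Tfec, an MITF-family gene of macrophages, led them (1.07 ± 0.10 in cKO, 1.41 ± 0.10 in cHet, adjusted p = 3.23e-07 and 1.3e-08). With total counts alone, 1 of the 10 was higher and 2 lower in cKO, and 1 higher and 1 lower in cHet. Zeb2, a zinc finger factor of macrophage identity, was higher in cKO than in cHet controls, at 553 ± 8.72 and 452 ± 17.7 CPM (log2 difference 0.29 ± 0.06, adjusted p = 0.00708).

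Genes known from other work to answer to the 9 factors were read the same way. Of 8 genes that BCL6 is known to repress, 6 were higher and 1 lower after Pg in both genotypes, with medians of 1.96 in cKO and 1.53 in cHet. Among all genes tested, 16.9% were higher and 17.1% lower in cKO, and 18% higher and 18% lower in cHet. The 8 genes are also targets of inflammatory signalling. Prdm1, which encodes the repressor Blimp-1, averaged 228 ± 15.3 CPM in cKO Pg and 80.7 ± 6.22 CPM in cKO control, and 235 ± 5.46 CPM in cHet Pg and 99.6 ± 5.98 CPM in cHet control libraries (adjusted p = 6.04e-11 and 7.02e-10, edgeR). The monocyte chemokine gene Ccl2 changed by 3.15 ± 0.17 in cKO and 2.14 ± 0.16 in cHet. The 1 that fell was Cxcl10, an interferon-inducible chemokine gene named after its values were seen (-1.92 and -1.80, adjusted p = 0.00114 and 0.0015). In controls, 3 of the 8 were lower in cKO than in cHet, against 3.02% of all genes tested. They were Ccl2 (-0.92 ± 0.16, adjusted p = 0.00893), Ccl7 (-0.93 ± 0.21, adjusted p = 0.0343) and Prdm1 (-0.30 ± 0.07, adjusted p = 0.0196). Bcl6 itself differed there by 0.07 (adjusted p = 0.695).

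Of 8 genes known to depend on C/EBP factors in myeloid cells, 3 were higher after Pg in cKO (median 0.28) and 5 in cHet (median 0.99). Among all genes tested, 16.9% were higher in cKO and 18% in cHet. Ptgs2, which encodes the inducible cyclooxygenase, averaged 212 ± 37.3 CPM in cKO Pg and 5.06 ± 0.128 CPM in cKO control, and 209 ± 12.8 CPM in cHet Pg and 7.34 ± 1.17 CPM in cHet control libraries. Csf3, the gene of the granulocyte growth factor G-CSF, had 280, 289 and 347 counts in cKO Pg and 0 in each cKO control library, which makes it at least 117-fold higher against a floor of 3 counts per library. In cHet it had 210, 305 and 295 counts with Pg and 7, 1 and 3 in controls. The cytokine gene Il6 averaged 6.36 ± 1.44 CPM in cKO Pg and 0.237 ± 0.177 CPM in cKO control, and 7.97 ± 1.31 CPM in cHet Pg and 0.897 ± 0.279 CPM in cHet control libraries. It was the 1 gene of this list that was lower in cKO than in cHet controls (log2 difference -1.87 ± 0.48, adjusted p = 0.0335, edgeR).

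Of 12 genes known to depend on PU.1, 4 were higher and 1 lower after Pg in cKO (median 0.08), and 4 were higher in cHet (median 0.25). Among all genes tested, 16.9% were higher and 17.1% lower in cKO, and 18% were higher in cHet. The endotoxin co-receptor gene Cd14 averaged 2325 ± 332 CPM in cKO Pg and 995 ± 209 CPM in cKO control, and 2361 ± 397 CPM in cHet Pg and 941 ± 166 CPM in cHet control libraries. The scavenger receptor gene Msr1 changed by 0.74 ± 0.18 in cKO and 1.24 ± 0.18 in cHet. The endotoxin receptor gene Tlr4 was lower after Pg in cKO (-0.48 ± 0.08, adjusted p = 0.000231), at 40.9 ± 5.24 CPM in cKO Pg and 57.0 ± 1.17 CPM in cKO control libraries. In cHet it averaged 40.0 ± 2.73 CPM in Pg and 45.3 ± 1.07 CPM in control libraries and did not pass. The genotype difference of the Pg response, tested as an interaction, passed for 0 of the 12. In controls Tlr4 was higher in cKO than in cHet (log2 difference 0.33, adjusted p = 0.0258). Under scaling by total counts alone 2 of the 12 were higher and 4 lower in cKO, and 2 were higher and 3 lower in cHet.

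For each of the 9 genes, the 2 genes most alike over the 12 libraries were found by Pearson's r of log2 CPM among 10995 genes; these values describe shared patterns that include the Pg and control groups, and the best of so many genes is high by choice. Cebpb was most like the chemokine gene Cxcl1 (r = 0.988) and the kinase gene Pim1 (r = 0.987). Hhex was most like Apobec1 and Enc1 (r = 0.989 each), Maf like Zkscan14 (r = 0.994) and Arhgap30 (r = 0.993), and Runx1 like Top1 (r = 0.995) and Mbnl2 (r = 0.993). Spi1 was most like Rela (r = 0.973), which encodes the p65 subunit of NF-kB, and Ptp4a1 (r = 0.962), and Id2 like Gem (r = 0.974) and Egr2 (r = 0.973). Cebpa was most like Sgk1 (r = 0.973) and Rasa3 (r = 0.957), Cebpd like Serp1 (r = 0.981) and Slc27a1 (r = 0.969), and Bcl6 like Pdcd11 (r = 0.952) and Ing3 (r = 0.950).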

How the data were processed

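The 12 libraries of macrophage poly-A RNA, 3 in each of 4 groups, were compared. The authors deposited raw counts per gene, 1 column per library. The submitters' processing notes name fastp, HISAT2 2.0.5, featureCounts 1.5.0-p3 and build mm10, and no annotation release or strand setting is given in the sources used here. The deposited table also gives gene lengths, which were used for CPM per kb.

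The tests used edgeR 4.0.16 in R 4.3.3. The filterByExpr function kept 13800 genes, TMM factors scaled the libraries, and all 12 entered 1 robust quasi-likelihood model with a mean for each group. P-values were Benjamini-Hochberg adjusted over 13800 genes in each of 6 comparisons, with a threshold of 0.05. The ± beside a log2 change is its standard error (the change over the square root of F), and beside a level the SD of 3 libraries. The interaction is tied to both genotype comparisons by construction, and comparisons with shared libraries were not correlated. The code was tested on simulated data. Pairs of libraries within a group differed by 2.59 to 17.2 in chi-square per gene, so none was counted as a repeat.

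The members, lists and tests were chosen with earlier results of these data known. Genes named from a list were up to 4 past the threshold with the smallest p in any of the 4 simple comparisons, filled up by mean expression. Alternatives were DESeq2 1.42.0, its size factors, library size alone, no filter and a stricter one, 2 groups alone, a replicate block and leaving out each library. An Itgax covariate and leaving out 4 libraries were added after seeing the data. Of 54532 gene identifiers, 99.8% matched the mm10 reference annotation, and all 9 members had the same start and end. No protein comparison was made, and some list genes are not reported here.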

Additional observations from a re-analysis of the deposited data

How the results depend on the processing

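The 9 genes under the alternatives gave 1116 values, of which 1050 kept their direction and side of the threshold, 20 gained a call, 18 lost one and 28 changed sign. Hhex, Maf, Runx1 and Cebpb kept their Pg calls in both genotypes under every alternative run. Spi1 turned to -0.093 in cKO and -0.0086 in cHet with library size alone, and its cKO call was also lost with no filter (adjusted p = 0.182), with 2 groups alone (0.0876) and with a replicate block (0.0728). Without the 4 libraries that stood apart, Cebpa turned to 0.14 and Cebpd to -0.33 for Pg in cKO, and with the Itgax covariate Id2 under Pg turned to 0.043. In controls, members and genes passing numbered 2 and 1101 with no filter (Id2 joined Cebpb). They numbered 3 and 1422 without the 4 libraries (Cebpa, Cebpd and Id2, but not Cebpb), and 3 and 1701 with the covariate (Cebpb, Hhex and Id2). Genes passing under Pg between genotypes numbered 507, 771 and 759 in that order, and for the mean genotype difference 1102, 1181 and 1455. For the interaction they numbered 389 with no filter, 259 by DESeq2, 868 without the 4 libraries (3 members) and 715 with the covariate (2 members). The cause was not tested. With 1 library left out, genes passing ranged over 3838 to 4807 for Pg in cKO (5 to 7 members), 4102 to 5103 for Pg in cHet (7 members throughout), 319 to 828 in controls, 153 to 307 under Pg, 499 to 715 for the mean and 42 to 207 for the interaction. The count in controls was 426, 355 and 319 without cHet control 2, cHet control 3 and cKO control 3, that under Pg 168 and 153 without cHet Pg 2 and cKO Pg 2, and that of the interaction 61, 42, 53, 42, 45, 43 and 207 without cHet control 2, cHet control 3, cHet Pg 2, cKO control 3, cKO Pg 1, cKO Pg 2 and cKO Pg 3. Differences near 0 changed sign when 1 library was left out: under Pg Cebpa ranged over -0.046 to 0.38, Cebpd over -0.59 to 0.26 and Id2 over -0.12 to 0.11, and in the mean Cebpa over -0.17 to 0.044, Cebpd over -0.094 to 0.33, Hhex over -0.077 to 0.038 and Maf over -0.057 to 0.052. Maf in controls ranged over -0.19 to 0.023 and Cebpd for Pg in cKO over -0.15 to 0.50. Same-numbered libraries did not deviate together (r of -0.25 to 0.32, 3 of 12 above 0.1, 4 of 12 best with their own number), so the numbers are not taken as pairs. With the replicate block 6 members passed for Pg in cKO, 7 for Pg in cHet, 1 in controls, 0 under Pg, 1 in the mean and 0 in the interaction, with 4448, 4723, 549, 220, 581 and 70 genes. Fitting 2 groups alone gives no mean or interaction. The Pg changes of Cebpa and Cebpd, with so wide a spread between the 3 libraries of a group, did not pass in the main edgeR fit. In the edgeR fit with the Itgax covariate, chosen after seeing the data, both passed in both genotypes (adjusted p of 0.000305 to 0.0479). Without the 4 libraries that stood apart, Cebpa passed in cHet, and Cebpd passed in both genotypes with opposite signs.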
